A study of Homo sapiens with 9 samples.

Results

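The genes of the MHC class II antigen presentation pathway and their regulator were followed in MDA-MB-231 cells after knockdown of ZIP7, the zinc transporter encoded by SLC39A7. They were 10 genes of the 58395 gene identifiers counted, of which 58275 had a symbol in GENCODE release 29. They were chosen by symbol, with earlier results of these data known. They are the regulator CIITA, the invariant chain CD74 and 5 genes for the chains of the HLA-DR, HLA-DP and HLA-DQ molecules. The other 3 are genes for the loading factors HLA-DM and HLA-DO. MDA-MB-231 is a triple-negative breast cancer cell line. The cells were reverse transfected with a nontargeting control siRNA (siNC) or with either of 2 siRNAs against ZIP7 (siZIP7_1 and siZIP7_2), and RNA was taken after 96 h. Each siRNA had 3 libraries, 9 together. The labels name no genetic change in the cells, and every group, siNC included, received an siRNA. They do not say whether the libraries of a group came from separate cultures, so p-values measure the spread between these libraries, which may be technical.

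MHC class II molecules present peptides from the endosomal route to CD4+ T cells. An alpha and a beta chain assemble in the endoplasmic reticulum on the invariant chain, which blocks the groove and steers the complex to endosomes, where HLA-DM replaces the last fragment of the invariant chain with a peptide and HLA-DO restrains HLA-DM. Dendritic cells, B cells and macrophages carry these molecules at all times, whereas many other cells, tumor cells among them, make them when CIITA is switched on, classically by interferon-gamma. CIITA does not bind DNA itself. It joins the RFX, CREB and NF-Y proteins that sit on a conserved module in front of the class II genes.

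Each library had 24153785 to 30454419 reads on genes. Expression is given in CPM, the read count relative to a library size adjusted by edgeR's TMM method, and 16761 genes passed the low-count filter, all 10 genes of the pathway among them. SLC39A7 was at 10.8% of its siNC level with siZIP7_1 and at 5.84% with siZIP7_2. Markers of the line were present, with VIM at 5529 CPM and CD44 at 816 CPM with siNC. Of 6 such markers, 4 were higher and 2 lower with siZIP7_1, and 2 higher and 4 lower with siZIP7_2. PGR was at 0 in the siNC libraries and ESR1 at 0.0887 CPM, whereas ERBB2 and GATA3, also listed as low in triple-negative cells, were at 74.2 and 15.8 CPM. The share of reads that the counting program assigned to no feature was 7.43% to 9.62% in the siNC and siZIP7_1 libraries. It was 9.995% to 11.5% in the siZIP7_2 libraries. Where these reads lie is not known, and the part of this share in the results was not tested.

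All 10 genes were lower with siZIP7_1 than with siNC, all 10 were lower with siZIP7_2 than with siNC, and all 10 were higher with siZIP7_2 than with siZIP7_1. Calls rest on the quasi-likelihood test of edgeR, with p-values adjusted over all genes tested by the Benjamini-Hochberg method and a threshold of 0.05. Many genes passed this threshold, and the counts have to be read against that. Of all genes tested, 35.9% were lower and 34.8% higher with siZIP7_1, and 39.3% were lower and 38.5% higher with siZIP7_2. With both siRNAs, 20.8% were lower. Between the siRNAs, 38.1% were higher with siZIP7_2. For each of the 10 genes the 3 groups did not overlap, with every siZIP7_1 library under every siZIP7_2 library and every siZIP7_2 library under every siNC library. Of all genes tested, 5.81% showed this order without overlap.

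The sizes of the changes are set beside those of all genes. The median log2 fold change of the 10 genes was -3.50 with siZIP7_1 and -1.91 with siZIP7_2, where the medians over all genes tested were -0.0069 and -0.0018. All 10 were at least 2-fold lower with each siRNA, as were 9.91% of all genes with siZIP7_1, 11.9% with siZIP7_2 and 2.30% with both. CIITA was at the edge of that limit with siZIP7_2. When the test itself asked for a change over 1.8-fold (edgeR's glmTreat), all 10 passed with each siRNA, against 8.32% of all genes as lower with siZIP7_1 and 10.7% with siZIP7_2. The members' CPM added up to 1210 ± 26.5 with siNC, 252 ± 2.30 with siZIP7_1 and 482 ± 3.84 with siZIP7_2 (SD, n = 3 each), so that 20.8% and 39.8% of the siNC sum remained. In bulk RNA, fewer cells that express a gene and less RNA per cell cannot be told apart.

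**Figure D1:**
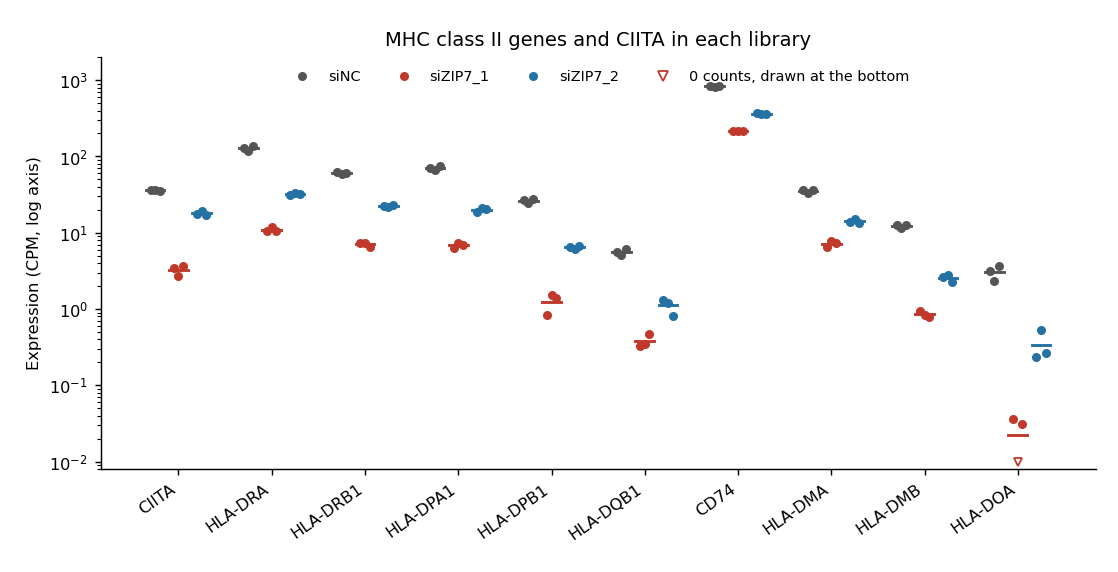
Expression of CIITA and the 9 class II genes in each library, in CPM on a log axis. Points are libraries (3 per siRNA) and bars are group means, with the 1 siZIP7_1 library without HLA-DOA counts drawn as an open triangle at the bottom. For every gene the siNC libraries lie highest, the siZIP7_1 libraries lowest and the siZIP7_2 libraries between them.

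**Figure D2:**
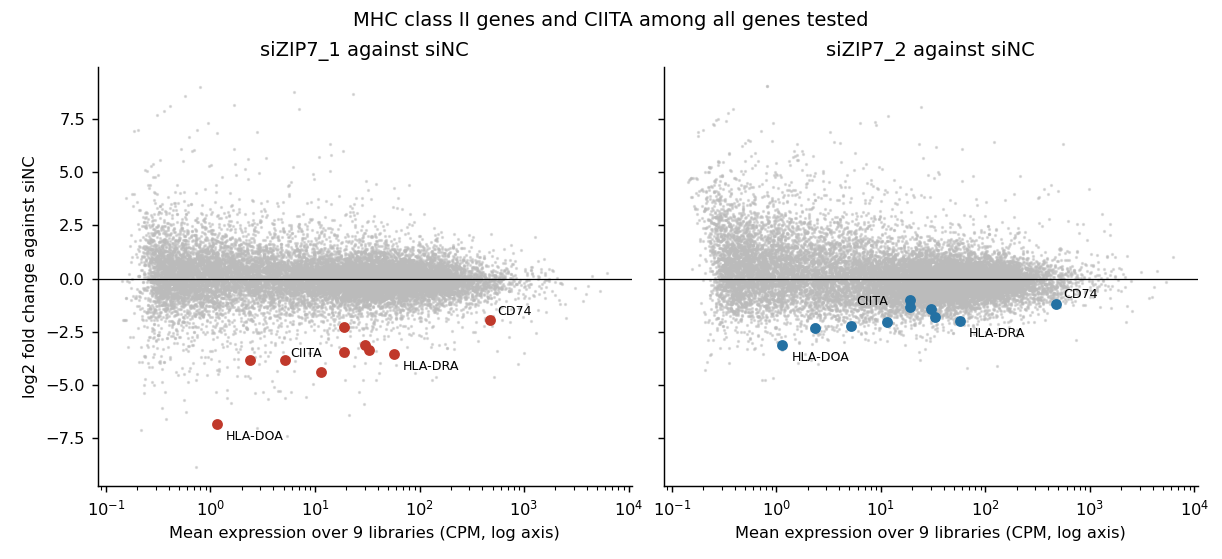
Log2 fold change against siNC by mean expression over the 9 libraries (CPM, log axis) for all 16761 genes tested, with siZIP7_1 on the left and siZIP7_2 on the right. Colored points are the 10 genes, 4 of them named, and grey points are all other genes. The colored points lie under 0 in both panels, from -6.83 up to -1.96 in the left panel and from -3.12 up to -1.003 in the right one.

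CIITA, the class II transactivator (ENSG00000179583, chromosome 16 of GRCh38, 10866222 to 10943021, plus strand), fell with each siRNA and further with siZIP7_1. Its expression was 36.2, 36.3 and 35.4 CPM in the siNC libraries. It was 3.42, 2.75 and 3.67 CPM with siZIP7_1 and 17.7, 19.1 and 16.9 CPM with siZIP7_2. The first siRNA thus left 9.13% ± 1.33 of the siNC level and the second 49.8% ± 3.05 (SD, n = 3 each). On the log2 scale siZIP7_1 changed CIITA by -3.45 (SE 0.090, adjusted p = 2.12e-23 by the quasi-likelihood test of edgeR) and siZIP7_2 by -1.003 (SE 0.071, adjusted p = 1.86e-13 by that test). The siZIP7_2 libraries were higher than the siZIP7_1 libraries by 2.45 in log2 (SE 0.096, adjusted p = 1.66e-19, edgeR). Of the gene's exonic length, 23.4% is overlapped by other genes, DEXI among them. The counts are per gene and do not separate the alternative promoters from which CIITA is transcribed in different cell types.

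The proteins that CIITA joins read short words in front of class II genes, the X box and, downstream of it, the Y box, whose core ATTGG is bound by NF-Y. RefSeq windows of 300 bases, 250 before and 50 after a gene's start in GRCh38.p14, were at hand for 8 of the 10 genes, and those of CIITA and HLA-DRA were not analysed here. ATTGG was searched on both strands, where the other strand reads CCAAT. It was found in a window of 7 of these 8 genes, all but HLA-DPA1 and in 34.6% of all 35116 windows. The longer word CTGATTGG, which contains ATTGG, was found on either strand for HLA-DRB1, HLA-DQB1 and HLA-DMA and in 3.97% of all windows. The same 3 genes held ACNNATG, a part of the X box, followed after 10 to 40 bases by ATTGG on the same strand, a pair that was in 0.871% of all windows. These are matches of letters and not sites of binding. The bases from 150 to 11 before the start are printed below for 5 genes that fell together, 3 with this pair of words and 2 without. All are on the minus strand and run 5′ to 3′ along the gene, with the core of the Y box, in either orientation, and the X box word in capitals. They cover chr6:32589859-32589998 for HLA-DRB1, chr6:32666668-32666807 for HLA-DQB1, chr6:32953108-32953247 for HLA-DMA, chr6:32941039-32941178 for HLA-DMB and chr5:150412921-150413060 for CD74.
HLA-DRB1: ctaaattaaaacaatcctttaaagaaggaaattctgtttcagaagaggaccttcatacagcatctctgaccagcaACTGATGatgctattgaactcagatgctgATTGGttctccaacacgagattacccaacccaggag
HLA-DQB1: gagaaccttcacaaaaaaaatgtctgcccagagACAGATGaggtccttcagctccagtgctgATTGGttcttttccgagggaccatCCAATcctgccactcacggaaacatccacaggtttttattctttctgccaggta
HLA-DMA: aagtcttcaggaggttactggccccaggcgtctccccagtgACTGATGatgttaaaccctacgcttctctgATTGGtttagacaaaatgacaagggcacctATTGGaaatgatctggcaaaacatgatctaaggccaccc
HLA-DMB: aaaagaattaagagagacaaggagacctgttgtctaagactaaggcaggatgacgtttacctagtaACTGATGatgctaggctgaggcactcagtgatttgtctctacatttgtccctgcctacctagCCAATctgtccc
CD74: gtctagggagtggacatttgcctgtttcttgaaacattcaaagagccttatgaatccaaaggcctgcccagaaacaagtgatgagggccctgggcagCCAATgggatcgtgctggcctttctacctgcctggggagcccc

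HLA-DMB held ACNNATG but no core of the Y box at the set distance on that strand. Of the words searched for, CD74 held the core alone, as CCAAT. A box spelled with other letters would be missed by this search, so a missing word does not show a missing box.

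HLA-DRA (ENSG00000204287, chromosome 6, 32439842 to 32445046, plus strand), the alpha chain shared by all HLA-DR molecules, had the highest level after CD74 per length as well as in CPM. It was at 131, 118 and 136 CPM in the siNC libraries. The siZIP7_1 libraries were at 10.5, 11.8 and 10.6 CPM and the siZIP7_2 libraries at 31.7, 33.0 and 32.0 CPM. The levels with the 2 siRNAs were thus 8.55% and 25.1% of that with siNC. The log2 fold changes were -3.55 (SE 0.065, adjusted p = 8.42e-27 by the quasi-likelihood test of edgeR) and -1.99 (SE 0.057, adjusted p = 1.83e-22, by that test).

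HLA-DRB1 (ENSG00000196126, chromosome 6, 32578769 to 32589848, minus strand) codes for the variable beta chain that pairs with HLA-DRA. It was at 62.4, 59.6 and 61.6 CPM with siNC, at 7.43, 7.25 and 6.50 CPM with siZIP7_1 and at 22.6, 21.8 and 22.8 CPM with siZIP7_2. Its log2 fold changes were nearer 0 than those of HLA-DRA, at -3.12 for siZIP7_1 (SE 0.068) and -1.45 for siZIP7_2 (SE 0.059). The ratio of HLA-DRB1 to HLA-DRA CPM was 0.453 to 0.504 in the siNC libraries, 0.614 to 0.706 with siZIP7_1 and 0.662 to 0.714 with siZIP7_2. Neither siRNA group overlapped the siNC libraries in this ratio (exact permutation test, two-sided p = 0.1 for each, the smallest that 3 against 3 libraries allow). HLA-DRB5 and HLA-DRB6, whose sequences are close to HLA-DRB1, also fell. Reads that fit several places equally were absent from the counts, so the split of reads among these 3 genes is uncertain.

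The HLA-DP pair lies head to head nearest to SLC39A7. HLA-DPA1 (ENSG00000231389, chromosome 6, 33064569 to 33080775, minus strand), the alpha chain, was at 70.7, 66.8 and 75.5 CPM with siNC. It was at 6.34, 7.25 and 6.90 CPM with siZIP7_1 and at 18.6, 21.4 and 20.3 CPM with siZIP7_2, log2 fold changes of -3.38 (SE 0.074) and -1.82 (SE 0.065). HLA-DPB1 (ENSG00000223865, chromosome 6, 33075926 to 33087201, plus strand), the beta chain, had larger log2 fold changes, of -4.37 (SE 0.12) and -2.02 (SE 0.093). Its levels were 26.5, 24.5 and 27.7 CPM with siNC, 0.838, 1.51 and 1.41 CPM with siZIP7_1 and 6.52, 6.15 and 6.73 CPM with siZIP7_2. With siZIP7_1, 4.78% ± 1.39 of its siNC level was left, and with siZIP7_2 24.6% ± 1.11 (SD, n = 3 each). The ratio of HLA-DPB1 to HLA-DPA1 CPM went from 0.370 ± 0.0051 with siNC to 0.182 ± 0.043 with siZIP7_1 and 0.323 ± 0.032 with siZIP7_2 (SD, n = 3 each; exact permutation test, two-sided p = 0.1 for each against siNC, the smallest possible). In HLA-DP the beta chain thus had the larger log2 decrease with each siRNA, and in HLA-DR the alpha chain had it. The HLA-DP genes overlap in 1.67% and 3.44% of their exonic lengths.

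HLA-DQB1 (ENSG00000179344, chromosome 6, 32659467 to 32668383, minus strand), the beta chain of HLA-DQ, was a low gene, with 154, 119 and 171 counts in the siNC libraries. There were 9, 10 and 15 counts with siZIP7_1 and 34, 37 and 21 with siZIP7_2. On the CPM scale it was at 5.60 ± 0.49, 0.381 ± 0.078 and 1.11 ± 0.27 (SD, n = 3 each), log2 fold changes of -3.85 (SE 0.21) and -2.32 (SE 0.17). HLA-DQA1, the alpha chain that would pair with it, had 7, 3 and 5 counts with siNC, none with siZIP7_1 and 1, 1 and 6 with siZIP7_2, and did not pass the low-count filter. Reads of HLA-DQB1 and of its close copy HLA-DQB2, which also fell with each siRNA, may be split between them.

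CD74 (ENSG00000019582, chromosome 5, 150401637 to 150412929, minus strand), the invariant chain, fell least with siZIP7_1 among the 10 genes. It was at 843, 822 and 829 CPM with siNC, at 213, 214 and 214 CPM with siZIP7_1 and at 371, 358 and 365 CPM with siZIP7_2. The log2 fold changes were -1.96 (SE 0.045, adjusted p = 1.17e-24 by the quasi-likelihood test of edgeR) and -1.19 (SE 0.044, adjusted p = 6.51e-20, by that test). CD74 made up 68.7% of the members' summed CPM with siNC, 85.0% with siZIP7_1 and 75.7% with siZIP7_2. The ratio of HLA-DRA to CD74 CPM was 0.154 ± 0.010 with siNC, 0.0513 ± 0.0032 with siZIP7_1 and 0.0883 ± 0.0034 with siZIP7_2 (SD, n = 3 each), with no overlap between the groups (exact permutation test, two-sided p = 0.1 for each siRNA against siNC, the smallest possible).

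The loading factors HLA-DMA and HLA-DMB, the alpha and beta chains of HLA-DM, had unequal log2 fold changes. HLA-DMA (ENSG00000204257, chromosome 6, 32948613 to 32969094, minus strand) was at 36.2, 33.2 and 36.2 CPM with siNC, at 6.45, 7.80 and 7.44 CPM with siZIP7_1 and at 13.9, 14.97 and 13.6 CPM with siZIP7_2. HLA-DMB (ENSG00000242574, chromosome 6, 32934629 to 32941070, minus strand) was at 12.6, 11.4 and 12.5 CPM with siNC, at 0.947, 0.824 and 0.784 CPM with siZIP7_1 and at 2.60, 2.80 and 2.27 CPM with siZIP7_2. The log2 fold changes were -2.28 (SE 0.079) and -1.31 (SE 0.073) for HLA-DMA and -3.84 (SE 0.14) and -2.25 (SE 0.12) for HLA-DMB. The ratio of HLA-DMB to HLA-DMA CPM was 0.346 ± 0.0022, 0.119 ± 0.024 and 0.180 ± 0.012 in the 3 groups (SD, n = 3 each; exact permutation test, two-sided p = 0.1 for each siRNA against siNC, the smallest possible). HLA-DMA shares 9.04% of its exonic length with other genes, among them BRD2, which rose with siZIP7_2 by 1.17 on the log2 scale, and HLA-DMB shares 9.41%. The strand setting of the counting is not given in the sources used here, so reads from these overlaps cannot be told apart.

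HLA-DOA (ENSG00000204252, chromosome 6, 33004178 to 33009612, minus strand), the alpha chain of HLA-DO, had the fewest counts of the 10 genes and the largest decreases. It had 88, 54 and 103 counts with siNC, 1, 0 and 1 with siZIP7_1 and 6, 16 and 7 with siZIP7_2. All siZIP7_1 libraries were under 3 counts, the floor used for a detected gene, which is at most 0.109 CPM in those libraries and covers counting error only. Against that floor, HLA-DOA was at least 28.0-fold lower with siZIP7_1 than the siNC mean, and the siZIP7_2 mean was at least 3.14-fold higher than with siZIP7_1. Only the siZIP7_1 side is bounded here. The siNC libraries ran from 2.32 to 3.67 CPM and the siZIP7_2 libraries from 0.233 to 0.526 CPM. The fitted log2 fold change of -6.83 with siZIP7_1 depends on the prior count of the fit and is no bound. At its bound of -4.81 HLA-DOA still had the largest decrease, so the median of the 10 genes had to stay at -3.50. With siZIP7_2 HLA-DOA was at 11.2% ± 5.23 of its siNC level (SD, n = 3), which is -3.12 in log2 (SE 0.27, adjusted p = 2.37e-11 by the quasi-likelihood test of edgeR).

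**Figure D3:**
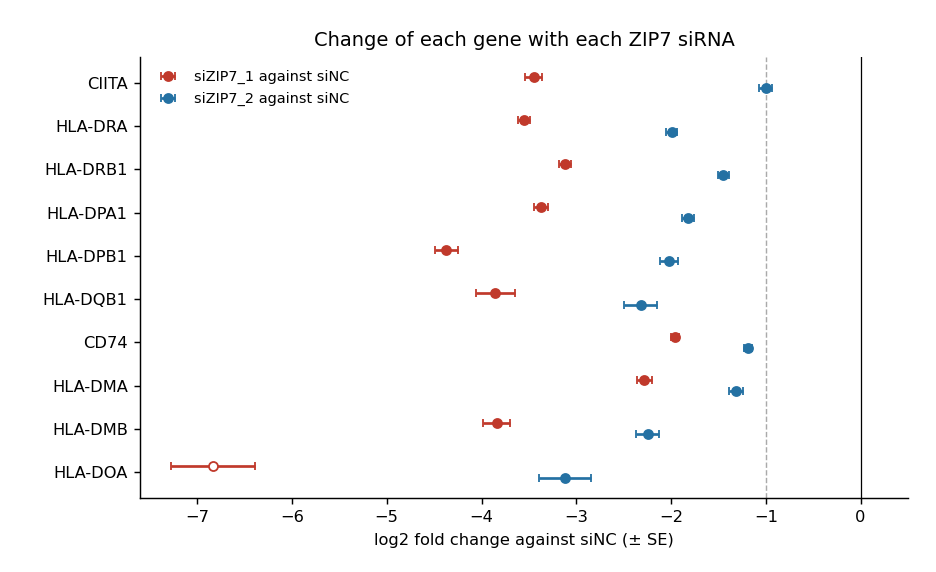
Log2 fold change against siNC of each gene with siZIP7_1 and siZIP7_2, with bars of 1 SE from the edgeR fit. The dashed line marks a 2-fold decrease, and the open point is HLA-DOA with siZIP7_1, whose counts were at or under the floor. Each gene lies further left with siZIP7_1 than with siZIP7_2, and CIITA with siZIP7_2 lies on the 2-fold line at -1.003.

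The order of the genes changed from one siRNA to the other. With siZIP7_1 the log2 fold change of CIITA, -3.45, was further from 0 than those of CD74, HLA-DMA and HLA-DRB1 and lay within 1 SE of that of HLA-DPA1. With siZIP7_2 it had the smallest log2 fold change of all 10 genes. The ratio of HLA-DRA to CIITA CPM was 3.57 ± 0.30 with siNC and 3.41 ± 0.76 with siZIP7_1 (SD, n = 3 each), which overlapped (exact permutation test, two-sided p = 0.7). It was 1.802 ± 0.081 with siZIP7_2 (SD, n = 3), under every siNC library (exact permutation test, two-sided p = 0.1, the smallest possible). For CD74 the pattern differed, with 23.1 ± 0.41 CPM per CPM of CIITA in siNC, 66.2 ± 10.5 with siZIP7_1 and 20.4 ± 1.49 with siZIP7_2 (SD, n = 3 each). SLC39A7 did not share the order of the class II genes, since it was lower with siZIP7_2 than with siZIP7_1, at 19.2 and 35.6 CPM.

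Levels can be compared between genes only per length, as CPM per kb of the principal transcript. CIITA was left out because its annotated principal transcript is far longer than its coding part. HLA-DOA was kept, but its principal transcript, at 3489 bases, is the longest of those kept, and its value per kb depends on that length. In siNC the order was CD74 at 848, HLA-DRA at 100.2, HLA-DRB1 at 49.8, HLA-DPA1 at 41.7, HLA-DMA at 31.4, HLA-DPB1 at 16.8, HLA-DMB at 8.72, HLA-DQB1 at 3.32 and HLA-DOA at 0.877 CPM per kb, and no neighbours in this order overlapped between libraries. With siZIP7_1 HLA-DMA at 6.43 CPM per kb came level with HLA-DRB1 at 5.74, with overlapping libraries, as did HLA-DPB1 at 0.804 and HLA-DMB at 0.610. With siZIP7_2 HLA-DMA at 12.6 and HLA-DPA1 at 11.8 CPM per kb overlapped. CD74 stood over all others in every group.

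Of 9 further class II genes and pseudogenes, 4 passed the low-count filter. All 4 were lower with siZIP7_1 and 3 were lower with siZIP7_2, with medians of -2.98 and -1.32. HLA-DRB5, a second HLA-DR beta chain, went from 25.3 ± 1.28 CPM with siNC to 3.20 ± 0.53 with siZIP7_1 and 9.77 ± 0.17 with siZIP7_2 (SD, n = 3 each). The mean ratio of HLA-DRB5 to HLA-DRB1 CPM was 0.413 with siNC, 0.456 with siZIP7_1 and 0.436 with siZIP7_2. As the split of reads between these genes is uncertain, HLA-DRB5 is not a separate observation from HLA-DRB1. The exception was HLA-DOB, the partner of HLA-DOA. It had 18, 10 and 8 counts with siNC, 6, 3 and 6 with siZIP7_1 and 17, 28 and 15 with siZIP7_2, a log2 fold change of -1.40 with siZIP7_1 and of 0.67 with siZIP7_2, which did not pass (adjusted p = 0.068 by the quasi-likelihood test of edgeR) but was called higher under upper-quartile scaling. HLA-DOA and HLA-DOB thus differed in direction of their log2 fold change with siZIP7_2.

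The proteins that bring CIITA to the class II genes had medians nearer 0 than those of the class II genes. Of 7 genes for RFX, NF-Y and CREB1, 5 were lower and 2 higher with siZIP7_1, and 4 were lower and 1 higher with siZIP7_2, with medians of -0.40 and -0.23. Upper-quartile scaling, which moved the median of all genes with siZIP7_2 to 0.10, made the latter 3 lower and 2 higher. NFYC, which was called in neither direction with siZIP7_2 (-0.098), had a value above 0 under that scaling. RFX5, the DNA-binding subunit of the RFX complex, fell by 0.61 and 1.19 on the log2 scale, so that unlike CIITA it was lower with siZIP7_2. NFYA, a subunit of NF-Y, was lower by -0.81 with siZIP7_1 and higher by 0.29 with siZIP7_2, and NFYB went the other way, at 0.49 and -0.51. RFXANK was higher with siZIP7_1 at 0.26 and lower with siZIP7_2 at -0.23. A list of 10 chromatin proteins linked to CIITA mixed activating and repressive ones. Of these, 4 were higher and 4 lower with siZIP7_1, and 4 higher and 6 lower with siZIP7_2. EZH2, the enzyme that places the repressive mark on lysine 27 of histone H3, fell by 0.66 and 0.77 on the log2 scale. KMT2D, an activating histone methyltransferase, rose by 0.65 and 0.67.

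The genes listed for the interferon-gamma route, which switches on CIITA in cells that are not professional presenting cells, had medians above 0. The list mixes genes that carry the route with restraints on it, SOCS1, SOCS3, PTPN2 and PRDM1. Its counts and medians therefore do not give the direction of the route. Of the 12 genes, 6 were higher and 5 lower with siZIP7_1, and 9 were higher and 2 lower with siZIP7_2. The medians were 0.12 and 0.49. With either other scaling, 0 were lower with siZIP7_2. The receptor chain IFNGR1 rose by 0.53 and 0.55 on the log2 scale. IRF1, which acts on a CIITA promoter, fell by 1.163 with siZIP7_1 and was at -0.11 with siZIP7_2, a call lost with either other scaling, and its CPM was 69.4 in siNC, 31.0 with siZIP7_1 and 64.4 with siZIP7_2. IFNGR2 and JAK1 were lower with siZIP7_1, at -1.12 and -0.46, and higher with siZIP7_2, at 0.35 and 0.93. PRDM1, a repressor of CIITA, was lower with siZIP7_1, at -0.56, and higher with siZIP7_2, at 1.99.

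**Figure D4:**
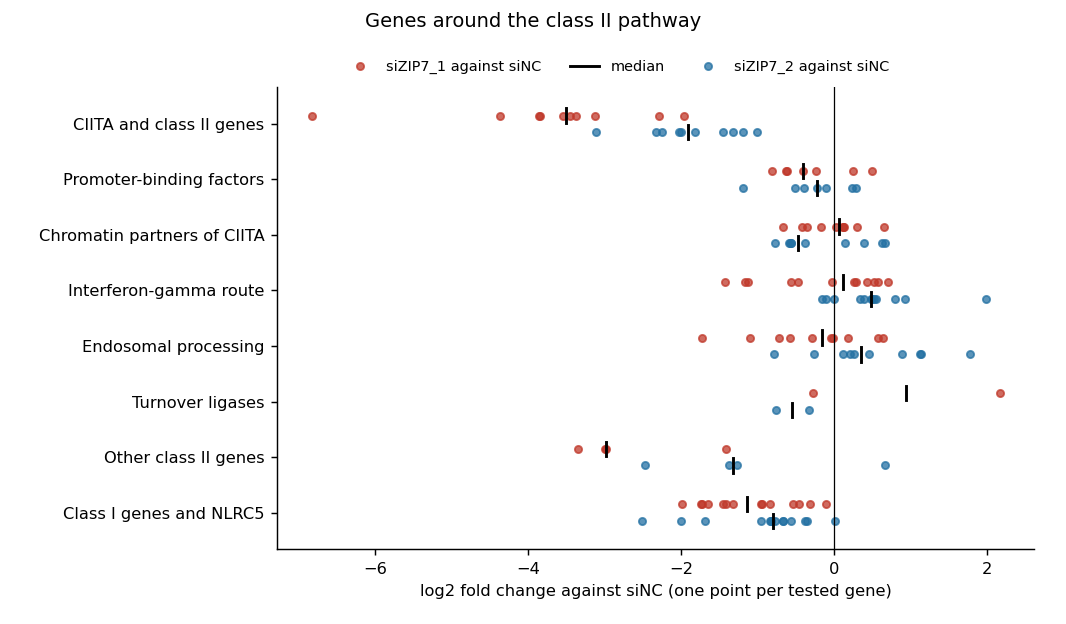
Log2 fold change against siNC of each tested gene in 8 groups around the class II pathway, 1 point per gene and siRNA, with black bars at the group medians. The class II genes and CIITA lie furthest left, with medians of -3.50 and -1.91, and the interferon-gamma route lies on both sides of 0, with medians of 0.12 and 0.49.

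In the endosome, several proteases of the invariant chain and of antigens moved in opposite directions with the siRNAs. Of 11 genes for endosomal processing, 10 were tested, of which 3 were higher and 5 lower with siZIP7_1 and 7 higher and 2 lower with siZIP7_2. CTSS, the cathepsin that makes the last cut in the invariant chain, was at 7.21 CPM with siNC, 2.20 with siZIP7_1 and 24.96 with siZIP7_2, log2 fold changes of -1.72 and 1.79. CTSL was at -0.72 and 1.14 on the log2 scale, and CTSB at -1.10 and 0.89. CTSC and CTSH went the other way, higher with siZIP7_1 at 0.64 and 0.58 and lower with siZIP7_2 at -0.78 and -0.26. The thiol reductase IFI30 did not pass the low-count filter. Of the ubiquitin ligases that remove class II molecules from the surface, MARCH1 rose by 2.17 with siZIP7_1, from 2.98 to 13.4 CPM, and fell by 0.76 with siZIP7_2. MARCH8 fell by 0.27 and 0.33.

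The MHC class I pathway had medians nearer 0. Of 14 genes, 13 were lower with siZIP7_1 and 13 with siZIP7_2, with medians of -1.14 and -0.79 and none higher. NLRC5, the class I counterpart of CIITA, fell by 1.65 and 0.67 on the log2 scale and was, like CIITA, lower with siZIP7_1 than with siZIP7_2. HLA-E with siZIP7_2 and TAP1 with siZIP7_1 were the exceptions, at 0.01 and -0.10, and HLA-E was called higher with siZIP7_2 under upper-quartile scaling.

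Most of the class II genes share a chromosome with SLC39A7, the gene that was knocked down. The 8 genes span 647 kb of chromosome 6, and the nearest of them ends 113 kb before the start of SLC39A7, while CIITA and CD74 lie on chromosomes 16 and 5. Between HLA-DRA and SLC39A7, a stretch chosen after values had been seen, 42 identifiers start, of which 22 were tested. The 10 tested genes there that are not class II genes had medians of -0.56 with siZIP7_1 and -0.54 with siZIP7_2. Of these, 6 were lower and 1 higher with siZIP7_1, and 6 were lower and 4 higher with siZIP7_2. RXRB, next to SLC39A7, was at 0.05 and -0.51 on the log2 scale and BRD2, between HLA-DMA and HLA-DOA, at -0.13 and 1.17. PSMB9, a subunit of the immunoproteasome, fell by 1.73 and 2.50. On other chromosomes, the log2 fold changes for siZIP7_1 and siZIP7_2 were -3.45 and -1.003 in CIITA, and -1.96 and -1.19 in CD74. The siZIP7_2 values of both lay nearer 0 than those of the 8 genes, which ran from -3.12 to -1.31. For siZIP7_1 this held for CD74 only, as the 8 genes ran from -6.83 to -2.28. The part of position in the decreases was not tested.

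**Figure D5:**
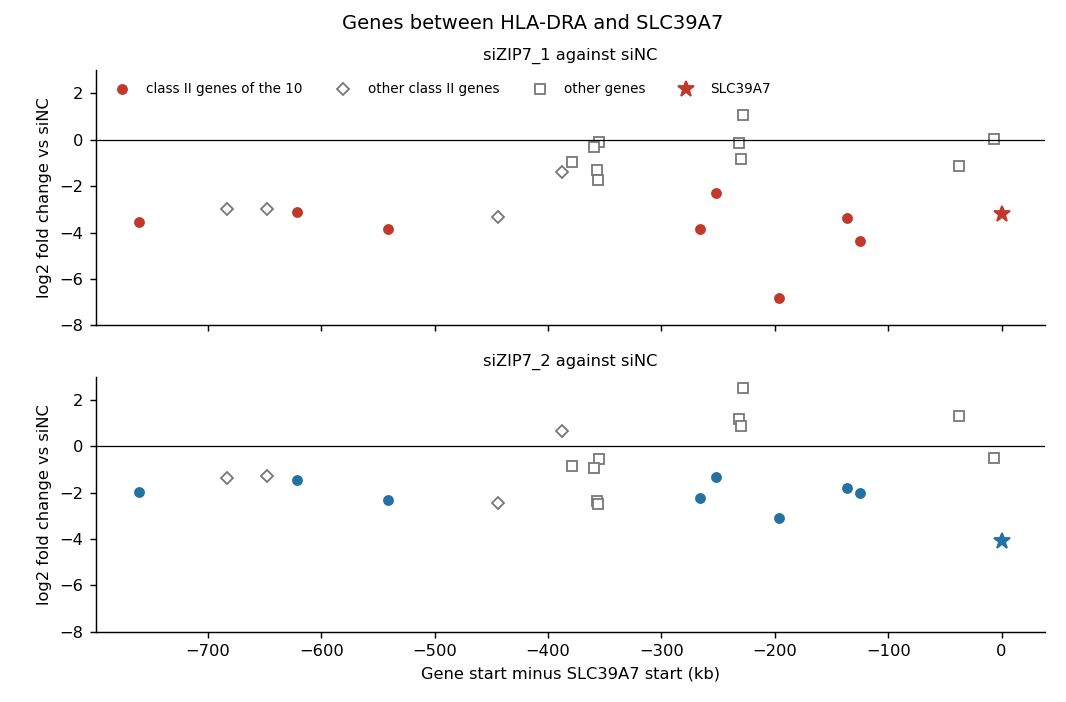
Log2 fold change against siNC of the 22 tested genes that start between HLA-DRA and SLC39A7, and of SLC39A7 (star), by the distance of their start from that of SLC39A7 in kb, with siZIP7_1 above and siZIP7_2 below. Filled circles are 8 of the 10 genes, diamonds are 4 other class II genes and squares are 10 other genes. Circles lie between -6.83 and -2.28 with siZIP7_1, whereas squares among them lie between -1.73 and 1.05. With siZIP7_2 they overlap, with circles between -3.12 and -1.31 and squares between -2.50 and 2.52.

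The 5 genes whose pair of log2 fold changes lay nearest to that of CIITA were not class II genes, though most class II members followed closely. Over 13735 genes whose mean reached 1 CPM, the 5 nearest by Euclidean distance were CA12, a carbonic anhydrase, at 0.23, TIMP4, an inhibitor of metalloproteases, at 0.30, AC134312.5 at 0.31, ALDH1A3, which makes retinoic acid, at 0.34 and FBXO27, an F-box protein, at 0.38. CA12 was at 38.3 ± 3.40 CPM with siNC, 3.03 ± 0.52 with siZIP7_1 and 18.04 ± 0.14 with siZIP7_2 (SD, n = 3 each). Of the class II members, HLA-DRB1 came 11th, at 0.56, and the others except HLA-DOA followed down to CD74, 107th at 1.501. HLA-DOA, whose value with siZIP7_1 is a fitted one, was at rank 9532, at 3.99. Ranks of class II genes outside the members are not given here. Of these, HLA-DRB6 was at -2.988 with siZIP7_1 and -1.265 with siZIP7_2, and HLA-DRB5 at -2.975 and -1.372. HLA-DOB lay further off, at -1.404 and 0.669. Both comparisons behind each distance share the siNC libraries.

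Class II genes mark blood cells, and markers of such cells were looked for. Of 16 markers, 4 passed the low-count filter, 2 had 0 counts in all 9 libraries and 7 had at most 3 counts in each. Of the 4 tested, 3 were lower and 1 higher with siZIP7_1, and 1 was lower and 2 higher with siZIP7_2. The B cell marker MS4A1 and the dendritic cell marker CD1C were the genes at 0. The markers' summed CPM was 7.05 to 8.57 with siNC, 1.86 to 1.88 with siZIP7_1 and 18.1 to 24.3 with siZIP7_2, so that the sum was highest with siZIP7_2, where the class II genes were lower than with siNC. LYZ, the lysozyme of monocytes, had the same order as the class II genes, at 1.06 CPM with siNC, 0.0465 with siZIP7_1 and 0.311 with siZIP7_2. The monocyte markers CSF1R and CD14, which made up most of this sum with siNC and siZIP7_2, were at 4.15 and 1.81 CPM with siNC, 0.101 and 0.544 with siZIP7_1 and 8.93 and 10.01 with siZIP7_2. PTPRC, the pan-leukocyte marker, was at 0.402, 0.875 and 0.326 CPM. The part of other cells in the results was not tested.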

How the data were processed

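RNA of MDA-MB-231 cells was sequenced as single reads, 3 libraries per siRNA. For each library the authors deposited the raw counts per Ensembl gene, with no normalization. The submitters' processing notes name Trim Galore 0.4.1, FastQC 0.11.2, STAR, HTSeq 0.6.1 and DESeq2 1.16.1. The genome build, the annotation and the strand setting are not given in the sources used here. The counting program's summary lines were left out of the library sizes. Of all reads listed, these lines included, 7.43% to 11.5% were assigned to no feature, 2.67% to 2.91% were ambiguous and none had several alignments. Identifiers were matched to GENCODE 29 for symbols and positions on GRCh38, and promoter windows came from RefSeq. The tests used edgeR 4.0.16 in R 4.3.3 (TMM, the low-count filter over groups, the quasi-likelihood test), in a single fit to 9 libraries with 6 residual degrees of freedom and Benjamini-Hochberg adjustment over 16761 genes at 0.05. An SE is the size of a log2 fold change divided by the square root of F, and the coefficient of variation was 4.50%. Groups were taken from the labels. Chi-squared per gene was 2.35 to 6.20 between libraries of a group and 146 to 275 between groups. Each library was counted as its own sample, though these values cannot show whether the libraries came from separate cultures. The genes named are the 10 members, the genes of the lists, SLC39A7 and the 5 genes nearest to CIITA. The members and lists were chosen with earlier results of these data known. Steps were tested on simulated data. The alternatives were DESeq2 1.42.0, other size factors, other count filters, glmTreat, a replicate block, fits to the groups compared and each library left out.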

Additional observations from a re-analysis of the deposited data

Results flagged for a closer look

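For each of the 10 genes the effects of the siRNAs against siNC differed, by a test of siZIP7_2 against siZIP7_1 itself (the quasi-likelihood test of edgeR, adjusted over all genes by the Benjamini-Hochberg method). The log2 difference, siZIP7_2 minus siZIP7_1, was 2.45 for CIITA, 0.77 for CD74, 1.56 for HLA-DRA, 1.67 for HLA-DRB1 and 1.56 for HLA-DPA1. It was 2.35 for HLA-DPB1, 1.53 for HLA-DQB1, 0.97 for HLA-DMA, 1.59 for HLA-DMB and 3.72 for HLA-DOA, where the size for HLA-DOA is a fitted value against counts of 0 and 1. The adjusted p was 5.04e-05 for HLA-DOA, 1.69e-05 for HLA-DQB1 and lower for the other genes. All 3 siZIP7_2 libraries were above all 3 siZIP7_1 libraries for each gene, as for 38.5% of all genes tested, and 38.1% of all genes were called higher in this comparison. SLC39A7 went the other way, with a log2 difference of -0.89.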

How the results depend on the processing

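The members' summed CPM changed by -2.27 (siZIP7_1) and -1.33 (siZIP7_2) against siNC on the log2 scale, by -2.24 and -1.22 under upper-quartile normalization and by -1.30 for siZIP7_2 with DESeq2's size factors. Upper-quartile scaling moved the median log2 fold change of all genes with siZIP7_2 to 0.10. Of 503 values of single genes under an alternative, none turned its direction and 2 lost their call, the differences between the siRNAs for CD74 (0.77) and HLA-DMA (0.97) when tested against 1.8-fold. CIITA with siZIP7_2 sat on the 2-fold limit, with values from -1.06 to -0.90, and was under it with DESeq2, with either other scaling, with at least 10 counts in every library, in a fit to these groups alone, and without siNC replicate 2 (-0.998), siZIP7_2 replicate 1 (-0.99) or siZIP7_2 replicate 3 (-0.96). The genes past it were then 9 of 10, or 7 of the 8 tested under the filter of 10 counts, which removed HLA-DQB1 and HLA-DOA. In a fit to the siZIP7 groups alone HLA-DOA was not tested, so 9 genes were called between the siRNAs. Deviations of libraries with the same number had correlations of -0.20 to 0.18 (9 pairs), and those with different numbers of -0.346 to 0.272 (18 pairs). These ranges showed no clear pairing by number but cannot exclude it. With the replicate block all 10 genes stayed lower with each siRNA. Depth limited HLA-DOA with siZIP7_1, where no library had over 1 count.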
